A study of Mus musculus with 18 samples.

Results

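The genes described here are Ctcf and 9 genes of the cohesin complex and its regulators, Smc1a, Smc3, Rad21, Stag1, Stag2, Nipbl, Wapl, Pds5a and Pds5b. They were picked by symbol, and all 10 were found among the 21859 protein-coding genes of the gene table. Of the 32253 PROMPTs (promoter upstream transcripts, made divergently from a promoter), 9 carried the symbol of 1 of these genes, and Smc1a had none. Nascent RNA was measured by TT-seq, in which transcripts made during a 5-min pulse of 4-thiouridine (4sU) are purified and sequenced. The cells were male E14 murine embryonic stem (ES) cells grown without feeders in serum with LIF and inhibitors of GSK and MEK. All of them carried osTIR1, the plant protein that directs auxin-bound tags to degradation. In SPT16_AID_V5_Clone1 and SPT16_AID_V5_Clone2, Supt16, which encodes the FACT subunit SPT16, was tagged at its C terminus with a mini-AID degron and V5, while untagged cells had osTIR1 alone. Each line was treated for 24 h with ethanol (EtOH) or with the auxin 3-IAA (3-indoleacetic acid), which gave 6 conditions of 3 libraries, 18 in all. Each tagged line was 1 clone. Per the methods, the clones are the biological replicates and repeats within a line are technical ones.

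Cohesin is a ring of SMC1A, SMC3 and RAD21, with STAG1 or STAG2 bound to it, that holds sister chromatids together and folds chromatin by extruding loops. NIPBL loads and drives the ring, WAPL releases it from DNA with the help of PDS5A and PDS5B, and CTCF, a zinc-finger protein that binds DNA, stops the ring at its sites so that loops are anchored there. In ES cells, as elsewhere, these proteins shape contacts between enhancers and promoters and the borders of topologically associating domains.

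The value given throughout is the authors' baseMean, a level: reads per feature divided by a size factor for each library and averaged over libraries. It does not separate control from SPT16-depleted cells, so no difference between conditions is given here, and neither a standard deviation nor a test can be attached to a level. Levels of single libraries were not used here. Of the summed baseMean of all genes, the 10 genes took 0.331%. The smallest gene value above 0, shared by 102 genes, was 0.0216, the worth of a single read in the library with the largest size factor. In the PROMPT table this value was 0.0266, so the 2 tables had been normalized separately, and any level set across them is only approximate. The ES cell markers Pou5f1, Sox2, Nanog, Zfp42, Esrrb, Klf4 and Tfcp2l1 had baseMeans from 5985 to 72140. Of 6 fibroblast and feeder markers, the highest was Pdgfrb at 952 and the lowest Postn at 0.118. The blood and endothelial markers Ptprc and Cdh5 were at 5.70 and 7.66, whereas Pecam1, which ES cells also express, was at 13200. In such bulk samples, fewer cells of a type and less RNA per cell cannot be told apart.

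The promoters of 5 of these genes are printed because the windows in which their PROMPTs would be counted begin in this stretch and extend upstream. Each runs from 250 bases before to 50 bases after the RefSeq start on GRCm38.p6 and is read 5′ to 3′ in the direction of the gene. Capitals mark matches, on either strand, to any of the 6 motifs searched, which were CCAAT (the CCAAT box), GGGCGG (the GC box), TATAAA (the TATA box), CCGGAAG (bound by ETS factors), AAGATGG (bound by YY1) and AGGGGGC (the core of the CTCF motif).
Ctcf, chr8:105636288-105636587, plus strand: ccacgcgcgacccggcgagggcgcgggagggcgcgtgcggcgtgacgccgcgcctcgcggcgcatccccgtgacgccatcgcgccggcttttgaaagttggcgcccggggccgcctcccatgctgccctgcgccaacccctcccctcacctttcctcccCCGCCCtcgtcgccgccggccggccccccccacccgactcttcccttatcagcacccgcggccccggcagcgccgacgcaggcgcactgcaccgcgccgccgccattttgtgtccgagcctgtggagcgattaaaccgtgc
Smc1a, chrX:152016178-152016477, plus strand: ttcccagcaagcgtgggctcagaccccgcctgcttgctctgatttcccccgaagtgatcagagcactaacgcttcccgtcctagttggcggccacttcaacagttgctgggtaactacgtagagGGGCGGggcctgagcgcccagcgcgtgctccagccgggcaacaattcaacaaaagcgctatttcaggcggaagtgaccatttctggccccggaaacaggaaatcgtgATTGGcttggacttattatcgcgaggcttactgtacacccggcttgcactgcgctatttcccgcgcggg
Smc3, chr19:53600146-53600445, plus strand: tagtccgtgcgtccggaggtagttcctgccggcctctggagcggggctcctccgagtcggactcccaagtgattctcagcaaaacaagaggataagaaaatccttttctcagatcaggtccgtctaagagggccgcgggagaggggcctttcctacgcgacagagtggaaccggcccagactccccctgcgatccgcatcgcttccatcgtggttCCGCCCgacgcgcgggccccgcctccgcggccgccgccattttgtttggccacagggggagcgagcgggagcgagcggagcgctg
Wapl, chr14:34673678-34673977, plus strand: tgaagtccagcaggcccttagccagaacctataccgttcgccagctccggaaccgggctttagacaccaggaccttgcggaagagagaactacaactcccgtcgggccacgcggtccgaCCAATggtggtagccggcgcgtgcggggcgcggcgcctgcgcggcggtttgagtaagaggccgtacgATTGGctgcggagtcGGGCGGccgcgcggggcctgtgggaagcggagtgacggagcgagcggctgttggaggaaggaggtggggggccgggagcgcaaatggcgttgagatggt
Pds5b, chr5:150673577-150673876, plus strand: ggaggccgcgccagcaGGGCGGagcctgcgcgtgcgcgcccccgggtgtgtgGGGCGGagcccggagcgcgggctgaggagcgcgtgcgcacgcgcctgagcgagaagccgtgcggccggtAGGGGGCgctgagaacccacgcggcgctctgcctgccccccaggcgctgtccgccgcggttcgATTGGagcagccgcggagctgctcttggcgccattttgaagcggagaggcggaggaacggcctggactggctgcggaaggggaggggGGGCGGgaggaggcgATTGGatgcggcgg

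RefSeq promoters were matched for 7 of the 10 genes, with Rad21, Stag2 and Nipbl unmatched. All 7 were rich in CpG, with 23 (Smc1a) to 55 (Pds5a) CpG dinucleotides in 300 bases, against a median of 7 over all 32851 promoters. Their GC content ran from 58.3% for Smc1a to 80.3% for Pds5a, with a median of 73.7% against 52.7% over all promoters. The GC box was found in 7 of 7, with 4 copies in Stag1 and 3 in Pds5b, and in 35.7% of all promoters. The set of all promoters was not matched to these windows for GC content, on which matches to such a motif depend. The CCAAT box was found in Smc1a, Stag1, Wapl and Pds5b, that is in 4 of 7, and in 37.4% of all promoters. The letters of the CTCF core were found once, in the promoter of Pds5b, and in 10.6% of all promoters. No match to the letters searched for the TATA box, ETS factors or YY1 was found in these 7 windows. Of all promoters, 13.6%, 8.86% and 6.34% held one. Each motif was searched as a fixed string of letters, so variants of these sites would have been missed. No 2 of the matches in these windows overlapped. The RefSeq start of Stag1 lay 45650 bp inside the Gencode gene, whose annotated start is farther upstream, while the other 6 starts differed by at most 88 bp.

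All 10 genes had high baseMeans, not divided by length, in these cells. Each lay in the top 25% of the 20157 genes with reads, and their median percentile was 95.7, meaning that the median gene of the 10 exceeded 95.7% of genes with reads. The median baseMean was 14431 for these genes and 421 for all genes with reads. Above percentile 90 were 9 of the 10, and above percentile 95 were 6. The spread within the set was 9.02 times from the highest gene, Stag1, to the lowest, Smc1a. These genes are long, with a median span of 83.3 kb against 17.6 kb for all genes. Per kb of span, 8 of the 10 were in the top 25%, and their median percentile was 84.6.

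Ctcf, on chromosome 8 of GRCm38 from 105636568 to 105682922 on the plus strand, had a baseMean of 12131, at percentile 94.1. Over a span of 46.4 kb it has 4.86 kb of merged exons, close to the lengths of Smc1a and Smc3. In the order of undivided levels it was 2.58% above Rad21, the next gene, and Smc3 exceeded it by a wider step of 18.2%.

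Among the ring genes, Smc1a, which encodes the SMC ATPase that pairs with SMC3, had the lowest baseMean of the 10 at 5781 (percentile 85.3). It lies on chromosome X from 152016428 to 152062694. Smc3, on chromosome 19 from 53600398 to 53645833, encodes the other ATPase arm of the ring and had a baseMean of 14333 (percentile 95.7). Both genes span nearly the same length, 46.3 kb and 45.4 kb, so their levels can be set side by side, and Smc3 was 2.48 times as high as Smc1a. Rad21, the kleisin subunit that closes the ring and is cut at anaphase, lies on chromosome 15 from 51962240 to 51991747 on the minus strand. Its baseMean was 11826 (percentile 93.9), and it was the shortest of the 10 genes, with a span of 29.5 kb. Stag1, on chromosome 9 from 100597798 to 100959375, had the highest baseMean, 52132, at rank 31 of all genes with reads. Stag1 was also the longest of the 10 genes, spanning 362 kb. Stag2, on chromosome X from 42149317 to 42277185, encodes the alternative STAG subunit and had a baseMean of 10772 (percentile 93.0). Stag2 spans 128 kb, so the pair is compared per length.

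Nipbl, the loader gene, lies on chromosome 15 from 8290617 to 8444463 on the minus strand and had a baseMean of 21330 (percentile 98.2). Wapl, the release factor gene on chromosome 14 from 34673928 to 34747983, had a baseMean of 20436 (percentile 98.0). For Pds5a, on chromosome 5 from 65605721 to 65698273 on the minus strand, the baseMean was 21526 (percentile 98.2). Nipbl, Wapl and Pds5a were close in undivided level, where Pds5a exceeded Nipbl by 0.915% and Nipbl exceeded Wapl by 4.38%. They were not close per length. In the order Nipbl, Wapl, Pds5a, levels were 139, 276 and 233 per kb of span and 2264, 3086 and 1113 per kb of exons. Pds5b, also on chromosome 5, from 150673739 to 150810690, had a baseMean of 14529 (percentile 95.8), 1.37% above Smc3. With a single mean for each gene, it cannot be told whether neighbours this close in order differ beyond the spread between libraries.

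The lowest places in this order of undivided levels were held by Stag2 and Smc1a, the 2 genes of the set on chromosome X. They did not hold both lowest places per length. Per kb of span Pds5b, at 106, was below Smc1a at 125, and per kb of exons Pds5a, at 1113, was below Stag2 at 1302. Over all genes with reads and a matched position, the median baseMean was 89.4 for 797 genes on chromosome X and 448 for 19287 genes on autosomes. Whether the chromosome has a part in the levels of Smc1a and Stag2 was not tested.

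**Figure D1:**
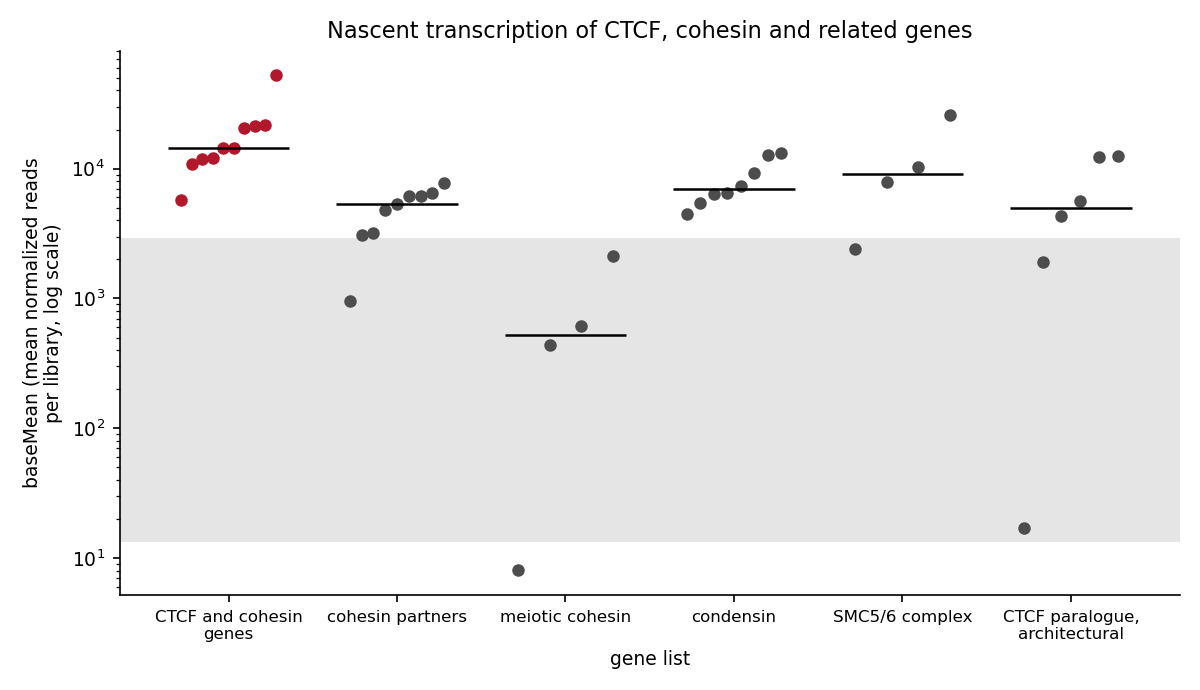
Authors' baseMean (log axis) of each gene with reads in the CTCF and cohesin set (red) and in 5 related lists (grey), with a horizontal line at each median and a grey band from the lower to the upper quartile of all genes with reads, 13.4 to 2900 (genes listed at 0 are not drawn). All 10 CTCF and cohesin genes lie above the band, from 5781 to 52132, while the 4 meiotic cohesin genes do not exceed 2143. All 8 condensin genes and 8 of the 9 cohesin partners also lie above the band. Levels are not divided by length.

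Levels of different genes can be compared only per length, and which parts of a gene were counted is not given in the sources used here. Across the 15428 genes whose baseMean reached 10, the level scaled with merged exon length to the power 0.99 and with gene span to the power 0.09 when both were fitted together. Length ordered the levels only loosely, with a Spearman's rho of 0.40 for exon length and 0.32 for span over the same genes. Genes are not independent replicates, and these exponents and correlations describe the table alone. Both scales are therefore given, with lengths from Gencode vM21 on GRCm38.

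Per kb of gene span, Rad21 was highest of the 10 genes at 401, followed by Smc3 at 315, Wapl at 276, Ctcf at 262 and Pds5a at 233. Below a gap of 61.3% came Stag1 at 144, Nipbl at 139, Smc1a at 125, Pds5b at 106 and Stag2 at 84.2. Stag1 and Nipbl, which were among the highest in undivided level, were thus in the lower part of the order per kb of span. On this scale 8 of 10 genes remained in the top 25% of genes with reads, and Pds5b (percentile 72.8) and Stag2 (percentile 68.0) did not. The median of the set was 188 per kb, against 21.7 for all genes with reads.

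Per kb of merged exons, Stag1 was highest at 4425, and Wapl followed at 3086, Rad21 at 2794, Smc3 at 2587, Ctcf at 2496 and Nipbl at 2264. Then came Pds5b at 1477, Stag2 at 1302, Pds5a at 1113 and Smc1a at 1002. All 10 genes lay in the top 25% of genes with reads on this scale, with a median of 2380 per kb of exons against 120 for all genes. The range within the set narrowed from 9.02 times in baseMean to 4.76 times per kb of span and 4.42 times per kb of exons.

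The paralogue pairs differed in how far they depended on the scale. Stag1 exceeded Stag2 on both, by 1.71 times per kb of span and 3.40 times per kb of exons. For the 2 PDS5 genes the order turned with the scale. Pds5a was 2.19 times as high as Pds5b per kb of span, but Pds5b was 1.33 times as high as Pds5a per kb of exons. The merged exons of Pds5a amount to 19.3 kb over 14 annotated transcripts, the most exon sequence in the set, against 9.84 kb for Pds5b.

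For the 3 subunits that occur once in each ring, the order Rad21, Smc3, Smc1a held on both length scales. Rad21 exceeded Smc1a by 3.21 times per kb of span and 2.79 times per kb of exons, and Smc3 exceeded Smc1a by 2.52 and 2.58 times. Rad21 and Smc3 were closer to each other, with ratios of 1.27 and 1.08. With a single mean for each gene, it cannot be told whether steps this small exceed the spread between libraries. Ctcf was below Rad21 on both scales, which exceeded it by 1.53 times per kb of span and 1.12 times per kb of exons. Wapl exceeded the loader Nipbl by 1.99 times per kb of span and by 1.36 times per kb of exons.

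**Figure D2:**
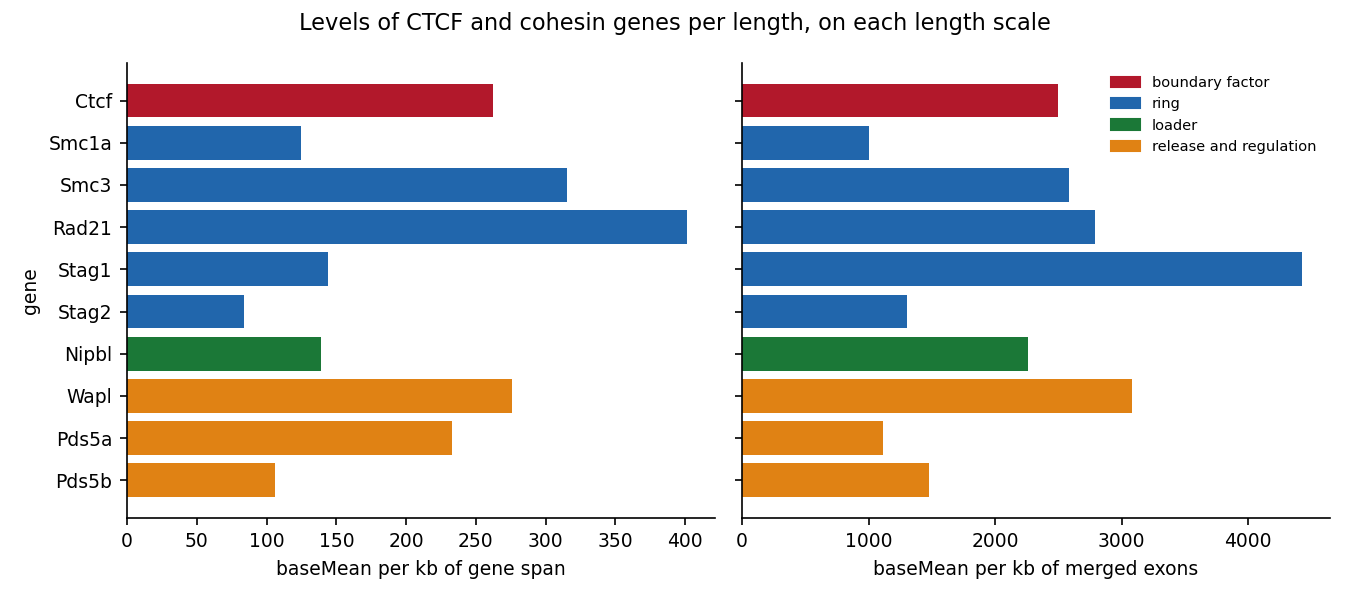
Authors' baseMean of the 10 genes divided by gene span (left) and by merged exon length (right), in normalized reads per kb on linear axes from 0, with bar colours for the role of each gene. Rad21 leads at 401 per kb of span and Stag1 at 4425 per kb of exons, and Pds5a and Pds5b exchange places between the panels.

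Other genes of these pathways were taken from lists, and each list is given by its counts and median. Of the 9 partners in cohesin loading, acetylation and mitosis, 8 were in the top 25% of genes with reads, with a median of 5301. The highest was Esco2 at 7723, an acetyltransferase that acts on SMC3 in S phase, and the lowest was Pttg1 at 950, which encodes securin, the inhibitor of separase. Mau2, the partner of NIPBL in the loader, had a baseMean of 6192. Nipbl exceeded Mau2 by 3.34 times per kb of exons, whereas per kb of span Nipbl was at 0.596 of the level of Mau2. Per kb of exons the median of the partners was 919, below the 2380 of the 10 genes, and per kb of span it was 215, above their 188. Their place relative to the 10 genes thus turned with the length scale.

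The 4 genes of meiotic cohesin had a median baseMean of 527, or 159 per kb of exons, and none was in the top 25%. Stag3, which encodes the meiotic STAG subunit, was highest at 2143, and Rad21l, a meiotic kleisin gene, was lowest at 8.09. The germ cell markers Ddx4, Sycp3 and Dazl were at 585, 395 and 259. Between paralogues, the meiotic Smc1b was at 109 per kb of exons, against 1002 for Smc1a.

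Condensin, the SMC complex that compacts mitotic chromosomes, had 8 of 8 genes in the top 25%, with a median of 6930. Its highest gene was Smc2 at 13181 and its lowest Ncapg at 4455. Per kb of exons, the ATPase genes Smc2 and Smc4 were at 2406 and 2441, near the 2587 of Smc3 but above the 1002 of Smc1a. Per kb of span the median of condensin was 225, above the 188 of the CTCF and cohesin genes, while per kb of exons it was 1219, below their 2380. Of the SMC5/6 complex, which acts in DNA repair, 4 of 6 genes had reads and 3 of these were in the top 25%. Nsmce2 was highest at 25833 and Nsmce1 lowest at 2394. Nsmce3 and Nsmce4a were listed at 0, while their PROMPTs had baseMeans of 6.27 and 13.6. A listed 0 may be a gap in the counting, and it is not read here as a lack of transcription.

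Ctcfl, the germline paralogue of Ctcf, was at 17.1, or 5.30 per kb of exons against 2496 for Ctcf. Of the other architectural factors, Yy1 was highest at 12564 and Adnp, a chromatin factor gene, was listed at 0, while its PROMPT was at 0.825. The same caution holds for this 0. The 6 genes of this list with reads had a median baseMean of 4965, or 932 per kb of exons, and 4 of them were in the top 25%.

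The PROMPTs of these genes, unlike the genes themselves, were not high among their kind, apart from that of Smc3. The baseMean of the PROMPT was 36.9 for Smc3, 2.36 for Wapl, 2.08 for Pds5a and 0.843 for Ctcf. It was 0.501 for Nipbl, 0.426 for Stag1, 0.292 for Rad21, 0.287 for Pds5b and 0.239 for Stag2. The PROMPT of Smc3 thus stood apart, at 15.7 times that of Wapl, and 6 of 9 PROMPTs (66.7%) were below 1. Of all PROMPTs, 53.2% of those with reads and 66.3% of those listed were below 1, so this share was near the background. The depth behind these values was small. Since no read counted for less than 0.0266, the PROMPT of Stag2 rested on at most 8 reads over all libraries, those of Rad21 and Pds5b on at most 10 each, and that of Stag1 on at most 15. For Nipbl the limit was 18 reads and for Ctcf 31, whereas for Smc3 it was 1385. At this depth the order among Nipbl, Stag1, Rad21, Pds5b and Stag2 cannot be resolved.

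The median percentile of the 9 PROMPTs was 41.7 among 23257 PROMPTs with reads, whose median was 0.815. That set also holds PROMPTs of noncoding starts, such as that of Gm5914, whereas the gene percentiles were taken among protein-coding genes. Smc3 was at percentile 94.9, Wapl at 65.6, Pds5a at 63.8 and Ctcf at 50.6, and the other 5 lay from 29.2 to 41.7. With PROMPTs at 0 included, the median percentile was 58.0, and 1 of the 9 was below the median of 0.262. Whether the 9 lay above or below the middle thus turned with the treatment of PROMPTs at 0. Genes with higher levels had higher PROMPTs in general (Spearman's rho 0.56 across 16619 genes with both, which are not independent). The PROMPTs were therefore also set beside those of 2506 genes at or above the level of Smc1a, whose median was 3.63 and of which 29.9% were below 1. On that footing 8 of the 9 PROMPTs were below the median, and their median percentile was 18.2. This set of genes was chosen after the values were seen, and the difference was not tested.

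As a share of the gene's own baseMean, the PROMPT amounted to 0.258% for Smc3 and to 0.0115% for Wapl. The lowest share was that of Stag1, 0.000817%, where the gene with the highest level had a PROMPT of at most 15 reads. As a share of the level per kb of span, Stag1 was at 0.295%, and Rad21 was lowest at 0.0728%. Per kb of exons Stag1 was again lowest, at 0.00962%, with Rad21 at 0.0104%. The PROMPTs of Stag1 and Rad21 rested on at most 15 and 10 reads, so the order of these 2 shares per kb of exons cannot be resolved. The median share was 0.00247% for the 9 genes, 0.0334% for genes at or above the level of Smc1a and 0.167% for all genes with both values. These shares rest on undivided gene levels, and the median span was 83.3 kb for the 10 genes against 17.6 kb for all genes. No share per kb was computed for the other sets, so the part of gene length in this difference was not tested. The 2 tables were normalized separately, so these shares are approximate.

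**Figure D3:**
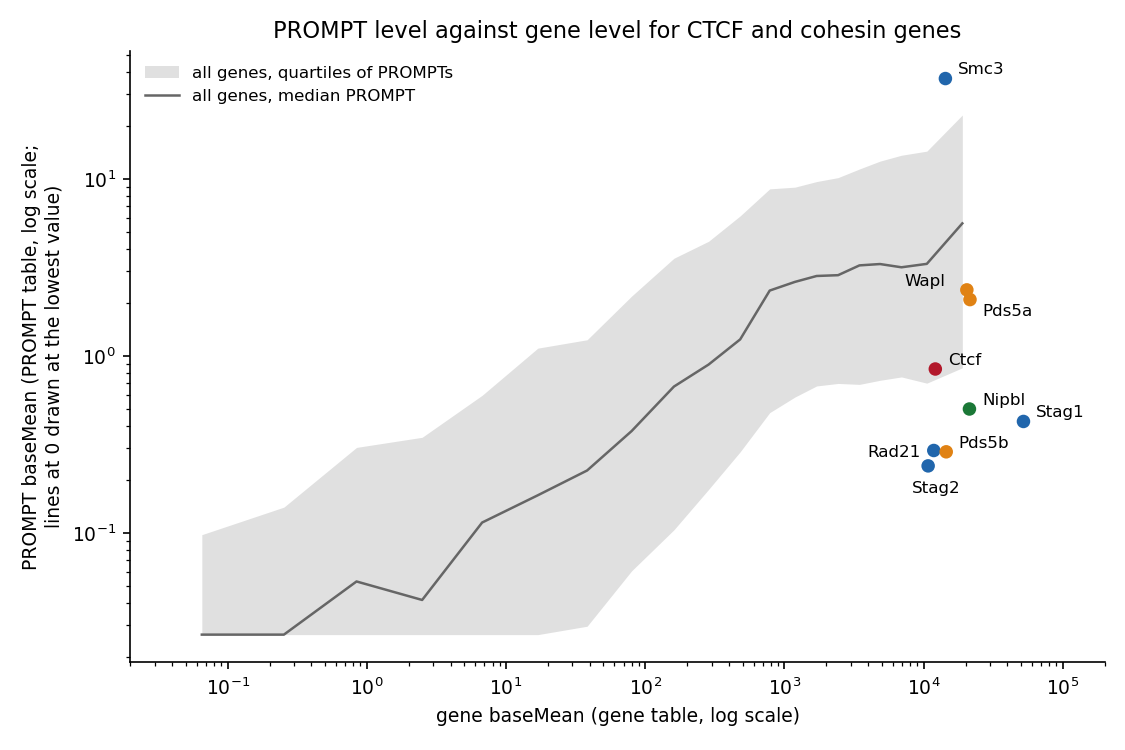
Authors' baseMean of the PROMPT against that of the gene (both log axes, from separately normalized tables) for the 9 genes with a PROMPT row, coloured by role as in the plot of levels per kb, over the median (line) and quartiles (band) of all 16619 genes with both values in 20 bins of gene level. Smc3, at 36.9, lies above the band, and the other 8 points, from 0.239 to 2.36, lie lower than the line at its right end, while a bin median or quartile of 0 is drawn at the lowest value, 0.0266.

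What else is annotated near a start bears on what the PROMPT window can hold. By the deposited description, windows within 1 kb of another protein-coding transcript were left out. Smc1a, which had no PROMPT row, has the protein-coding gene Ribc1 starting 133 bp upstream on the opposite strand. Ribc1 had a gene baseMean of 363 and kept a PROMPT row of its own, at 34.0, although Smc1a starts equally near. The window upstream of Ribc1 and antisense to it lies on the strand of Smc1a and runs into that gene. Ctcf also kept a row although the protein-coding gene Agrp covers its window, so the stated rule does not by itself account for which rows are present. At Wapl, the long noncoding RNA 5830448L01Rik, annotated as made from a bidirectional promoter, starts 165 bp upstream on the opposite strand. At Smc3, the unverified transcript AC137853.1 starts 987 bp upstream on the opposite strand, almost outside the window. Without Smc3 and Wapl, the other 7 PROMPTs ran from 0.239 to 2.08. Pds5a, at 2.08, has no such annotation and was close to Wapl at 2.36. The part of these transcripts in the PROMPT levels was not tested.

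At Ctcf, 2 antisense annotations cross the start: Agrp, a protein-coding gene that starts 825 bp inside Ctcf and had a gene baseMean of 1309, and the noncoding Gm5914, which starts 917 bp inside. The antisense transcript Gm37564 starts 864 bp inside Stag2 and also crosses its start. Although these annotations cover the upstream windows, the PROMPTs of Ctcf and Stag2 had baseMeans of 0.843 and 0.239. Deeper inside the 10 genes, only pseudogenes, small RNAs and unverified or intronic transcripts are annotated. These were Gm5915 in Ctcf, Gm15267 in Smc1a, and Gm47803, Gm8661, Gm37204, Gm38297 and Gm3081 in Stag1. Pds5a holds Gm42727, Gm42729, Gm24399, Gm42728 and C030017G13Rik, and Pds5b holds Gm24630, Gm26013 and Gm43807. No protein-coding gene on the same strand overlaps any of the 10 genes, and per the methods reads were counted by strand. The table names a PROMPT only by symbol, so which of the annotated starts of Stag1 the window belongs to is unknown.

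**Figure D4:**
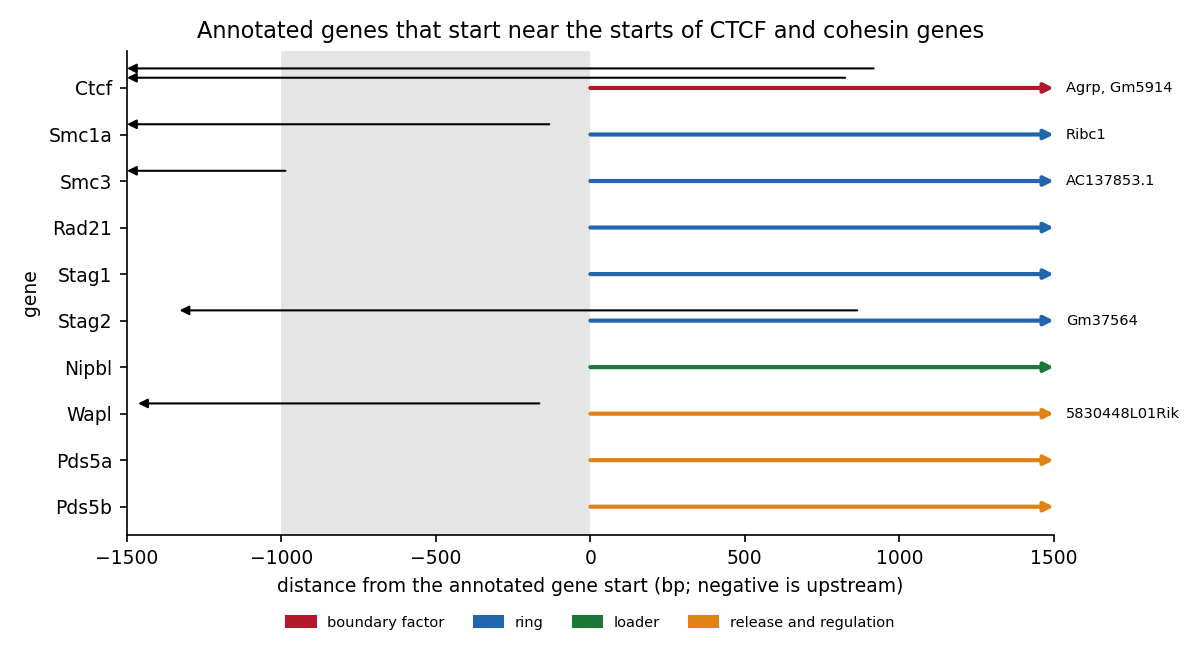
Distance in bp from the annotated start of each of the 10 genes (coloured arrows, running right; colours give the role) to other annotated genes that start within 1500 bp and overlap the gene or start upstream of it (black arrows, with names at the right), with the 1-kb window upstream shaded. Ribc1 starts 133 bp upstream of Smc1a, 5830448L01Rik 165 bp upstream of Wapl and AC137853.1 987 bp upstream of Smc3.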

How the data were processed

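TT-seq libraries of 6 conditions, 3 each, were grouped by their titles. Per the methods, the authors used Trim Galore, STAR (unique alignments to mm10) and strand-specific featureCounts on Gencode vM25, with no expression filter. The tools named with the deposited samples include STAR and HTSeq but neither featureCounts nor Trim Galore. Which program counted the reads is therefore not settled here. The signal that the authors deposited, baseMean, is the mean over libraries of counts divided by DESeq2 size factors. Which libraries entered it is not given in the sources used here. The other 4 value columns of the gene and PROMPT tables hold the authors' own comparison of SPT16-depleted with control cells (fold changes, standard errors and p-values) and were not used, nor were 2 tables of distal regions. The depth per library cannot be computed from the columns used, and the methods give only an approximate number of mapped reads common to the libraries.

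A percentile is the share of features with a baseMean above 0 that lie below a value. Lengths and starts came from Gencode vM21 on GRCm38, which held 21817 of the 21859 genes by Ensembl ID, and promoters from RefSeq on GRCm38.p6. The limit on reads behind a PROMPT is its baseMean over the smallest value above 0 in its table, rounded down. It is an upper bound on the number of reads and gives no measure of the spread between libraries. All 10 genes were named, with the highest and lowest of each list, genes listed at 0, and annotated genes that overlap them or start just upstream. The other markers, Mau2, Smc4 and Smc1b were added with their values seen. The genes and lists were chosen with earlier results of these data known. The alternatives were filters on baseMean, features at 0 included, levels per kb, and PROMPTs without an antisense start. Scripts were tested on simulated data and run in Python 3.11.15 (numpy 2.4.6, pandas 2.3.3, scipy 1.17.1, matplotlib 3.10.9).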

Additional observations from a re-analysis of the deposited data

How the results depend on the processing

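The number of CTCF and cohesin genes in the top 25% of genes was 10 at a baseMean of at least 1, at one of at least 10, with genes at 0 included and per kb of exons, and 8 per kb of gene span. Their median percentile, 95.7, was 95.1 at a baseMean of at least 1, 94.4 at one of at least 10, 96.1 with genes at 0 included, 95.2 per kb of exons and 84.6 per kb of span. The median level was 188 per kb of span and 2380 per kb of exons. The median percentile of their PROMPTs, 41.7, was 58.0 with PROMPTs at 0 included, 38.7 without the genes that have an antisense start within 1000 bp upstream, 18.2 among PROMPTs of genes at or above the level of Smc1a (an alternative added after seeing the data) and 0 among PROMPTs with a baseMean of at least 1, since the median PROMPT was below that filter. The median PROMPT share, 0.00247% of the gene's baseMean, was 0.00235% without the genes that have such an antisense start, 0.0221% of the level per kb of exons and 0.322% of that per kb of span. No paired analysis was possible because the tables hold 1 mean over libraries for each feature, and for the same reason no replicate could be left out.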
